A study of Mus musculus with 14 samples.

Results

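Expression of 10 intestinal stem cell marker genes, Lgr5, Ascl2, Olfm4, Smoc2, Tnfrsf19, Rgmb, Cdca7, Bmi1, Lrig1 and Hopx, was followed in mouse intestine, intestinal adenomas and a colon carcinoma cell line. Their probes were those whose gene name in the scanner output is 1 of the 10 symbols, which gave 15 probes of the 55681 on the array and 10 gene names of 36161. RNA was hybridized to 14 arrays in 5 groups. Small intestine (3 arrays) and colon (3 arrays) were labelled as whole tissue of C57BL/6J mice, and wild type animals in the study were adult. Adenomas (3 arrays, macroscopic lesions) and the non-tumour tissue adjacent to them (2 arrays) were whole tissue of the APCmin/+ strain on the same background, which carries a truncating mutation in 1 copy of Apc, a brake on Wnt signalling. The age of these animals is not given in the sources used here. CT26 (3 arrays) is a colon carcinoma line of BALB/c origin, from the ATCC. The study used several APCmin/+ mice, and its sample list is the one source that places all adenoma and adjacent arrays under 1 mouse. By that list their spread is that between pieces of tissue, and the Apc genotype cannot be told apart from the mouse. The methods also speak of normal colon taken from APCmin/+ mice, and the sample list has 1 colon sample under such a mouse, although the labels give C57BL/6J for every colon sample. Nothing says that the CT26 replicates were separate cultures.

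The epithelium of the intestine is renewed from stem cells at the base of the crypts. Cycling crypt base columnar cells carry the receptor Lgr5 and depend on Wnt and R-spondin signals, and Apc loss switches on the same Wnt programme without the ligands. Bmi1, Lrig1 and Hopx were first used as marks of a slower cycling or reserve pool, and later work found each of them more widely in the crypt, Lgr5+ cells included.

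Levels are given as the scaled log2 signal, which is the log2 of the background-subtracted intensity of a probe minus the 75th percentile of its array, so that 0 is the level of that percentile. A probe is called well above background where the scanner software marked it so. Between 46.9% and 58.2% of the probes of an array were well above background. Colon replicate 3 stood apart. Its enterocyte list (8 genes such as Sis and Apoa4) had a median of 7.19, against -1.21 and -0.54 on the other colon arrays and 7.83 to 9.24 in small intestine, and its Paneth cell list (6 genes) had a median of 8.02, against -4.23 and -3.35. Over all probes it correlated more with small intestine (r = 0.96 to 0.966) than with the other colon arrays (r = 0.937 and 0.939). Its colonocyte list (6 genes) had a median of 3.53, against 5.30 on both other colon arrays and 0.01 to 0.38 in small intestine. Results with colon are therefore given with and without it. In CT26, which is labelled as colorectal, 4 of 8 epithelial genes (Epcam, Cdh1, Krt19 and Cldn3) were not well above background on any array. Another 3 of the 8 were well above background on every CT26 array. The summed signal of the list was 36.4 to 56.5 times the array's 75th percentile in CT26 and 1530 to 2844 times in colon.

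RefSeq promoter windows were at hand for 8 of the 10 genes (12 windows, GRCm38.p6), with no entry for Lgr5 and Smoc2. They are shown for Tnfrsf19 and Ascl2, which were higher in adenomas, and for Olfm4, which was not, as the 250 bases upstream of the annotated start, 5′ to 3′ on the gene's strand. The windows were searched on both strands for the TCF/LEF heptamers CTTTGAA and CTTTGAT, the sequence through which Wnt signals reach DNA, and for CAGCTG, an E-box of the kind bound by factors of the Ascl2 family. Capitals mark matches, and the motifs do not overlap. The windows lie on the minus strand at chr14:61037988-61038237 (Tnfrsf19, the second of 2 annotated starts) and chr7:142969265-142969514 (Ascl2), and on the plus strand at chr14:80000052-80000301 (Olfm4).
Tnfrsf19: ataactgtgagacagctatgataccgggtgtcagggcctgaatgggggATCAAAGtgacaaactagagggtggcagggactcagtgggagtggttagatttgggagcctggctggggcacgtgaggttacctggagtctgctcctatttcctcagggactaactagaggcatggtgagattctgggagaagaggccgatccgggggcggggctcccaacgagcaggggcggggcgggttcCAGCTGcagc
Ascl2: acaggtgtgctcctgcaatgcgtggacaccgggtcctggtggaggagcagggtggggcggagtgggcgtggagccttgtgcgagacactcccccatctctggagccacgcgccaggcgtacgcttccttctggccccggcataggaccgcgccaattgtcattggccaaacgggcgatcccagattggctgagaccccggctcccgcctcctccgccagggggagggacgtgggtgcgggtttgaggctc
Olfm4: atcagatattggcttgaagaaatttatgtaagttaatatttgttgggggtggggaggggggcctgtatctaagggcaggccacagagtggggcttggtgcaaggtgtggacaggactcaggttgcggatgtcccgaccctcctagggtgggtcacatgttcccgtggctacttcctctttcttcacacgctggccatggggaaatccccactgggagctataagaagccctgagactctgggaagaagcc

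A TCF/LEF heptamer was found in 1 of the 12 windows, that of Tnfrsf19 shown above, which holds CTTTGAT on the other strand, 202 to 196 bases before the start. Of all 32851 windows of this length, 7.48% held either heptamer. CAGCTG was found in the same Tnfrsf19 window, 10 to 5 bases before the start, and in 13% of all windows. No match says only that these letters are not in these 250 bases. The GC content of the 12 windows ran from 50% to 71.6%.

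Between adenomas and healthy small intestine, 6 of the 10 markers were higher in adenomas, namely Lgr5, Tnfrsf19, Ascl2, Smoc2, Cdca7 and Lrig1, and none was lower. A gene was called where the log2 fold change reached 1.2 in size with an adjusted p no higher than 0.01 in limma, read from its brightest probe. Of all 22095 genes tested, 11.3% were called higher. The median log2 difference was 1.55 over the 10 markers and -0.15 over all genes tested, and the latter moved to -0.03 with quantile normalization. The arrays of both groups did not overlap, in either direction, for 8 of 10 markers (Rgmb with the lower values in adenomas), against 65.2% of all genes. The RNA levels of some lists of cell type genes also differed between the groups. Medians of the enterocyte list were 7.83 to 9.24 in small intestine and 5.48 to 6.16 in adenomas, those of the Paneth list 7.70 to 9.05 and 4.68 to 5.51, and those of the smooth muscle list (6 genes) 3.58 to 5.30 and 2.81 to 2.98. Their part in the marker differences was not tested.

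Lgr5, the R-spondin receptor on chromosome 10 (mm9 probe position 114887403 to 114887462), gave scaled log2 signals of 3.1, 2.96 and 3.38 in the adenomas and 0.26, -0.57 and -1.10 in small intestine. The adjacent tissue gave 0.61 and 1.43. Every adenoma array lay above every other array of the study, and the adjacent arrays lay between the adenomas and the small intestine. Adenomas exceeded small intestine by 3.62 ± 0.343 (log2, SE; 12.3-fold, adjusted p = 0.000334). The call held under all 15 alternatives, with an adjusted p of at most 0.00287.

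Tnfrsf19, also known as Troy, is a Wnt-induced receptor of the TNF receptor family that dampens Wnt signalling. Its brighter probe (chromosome 14, 61582873 to 61582932) gave 1.86, 1.82 and 2.32 in adenomas, 0.06 and 0.15 in adjacent tissue, and -1.2, -1.12 and -2.27 in small intestine. The groups did not overlap and lay in the order small intestine, adjacent tissue, adenoma. The difference between adenomas and small intestine was 3.53 ± 0.335 (11.6-fold, adjusted p = 0.000335), and the call held under all 15 alternatives. The dimmer probe (61589667 to 61589726) gave a smaller difference, 2.28 ± 0.216. Its signal in small intestine replicate 2 (-3.74) was not well above background. It entered the test through adenomas alone, which selects for a difference, so its value is given as a description.

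Ascl2 is the basic helix-loop-helix factor that controls the crypt base programme. Its probe (chromosome 7, 150152734 to 150152793) gave 3.57, 3.59 and 3.30 in adenomas, 2.14 and 3.47 in adjacent tissue and 2.28, 0.73 and 0.47 in small intestine. Adenomas were higher than small intestine by 2.32 ± 0.454 (5.01-fold, adjusted p = 0.00562), and adjacent tissue overlapped both groups. Small intestine replicate 1, the highest of its group for Ascl2, Lgr5 and Olfm4, also had the highest median of the proliferation list (2.31, against 1.37 and 1.01), whose part in these values was not tested. The call was lost without small intestine replicate 2 (adjusted p = 0.0212) or 3 (adjusted p = 0.0151), without any adenoma array (adjusted p = 0.0179 to 0.0252), with the slide as a block (adjusted p = 0.0126) and with no filter on dim probes (adjusted p = 0.0131).

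Smoc2, a secreted calcium-binding matrix protein (chromosome 17, 14541664 to 14541723), gave 5.47, 5.53 and 5.35 in adenomas, 4.61 and 4.99 in adjacent tissue and 4.10, 3.95 and 2.92 in small intestine. The 3 groups did not overlap. The difference between adenomas and small intestine was 1.79 ± 0.315 (3.47-fold, adjusted p = 0.0037), and the call was lost without any adenoma array (adjusted p = 0.0144 to 0.0188) and with no filter on dim probes (adjusted p = 0.0103). Smoc2 is also made by mesenchymal cells, and the fibroblast list (6 genes, all well above background in every tissue group) had medians of 3.71 to 3.89 in adenomas and 0.57 to 2.33 in small intestine, with summed signals of 90 to 105 and 13.1 to 69.8 times the array's 75th percentile. Its part in the Smoc2 difference was not tested.

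Cdca7, a chromatin-associated target of Myc tied to the cell cycle (chromosome 2, 72324849 to 72324908), gave 4.23, 4.19 and 4.19 in adenomas, 3.25 and 3.50 in adjacent tissue and 2.94, 2.41 and 2.03 in small intestine. The 3 groups did not overlap. Adenomas were higher than small intestine by 1.74 ± 0.243 (3.35-fold, adjusted p = 0.00147), under all 15 alternatives. The proliferation list (10 genes such as Mki67 and Top2a, all well above background in every group) had medians of 3.35 to 3.43 in adenomas, 2.29 and 2.32 in adjacent tissue and 1.01 to 2.31 in small intestine. Its summed signal was 163 to 180 in adenomas and 48.8 to 91.1 in small intestine, and its part in the Cdca7 difference was not tested. In bulk tissue, more cells of a type and more RNA per cell cannot be told apart.

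**Figure D1:**
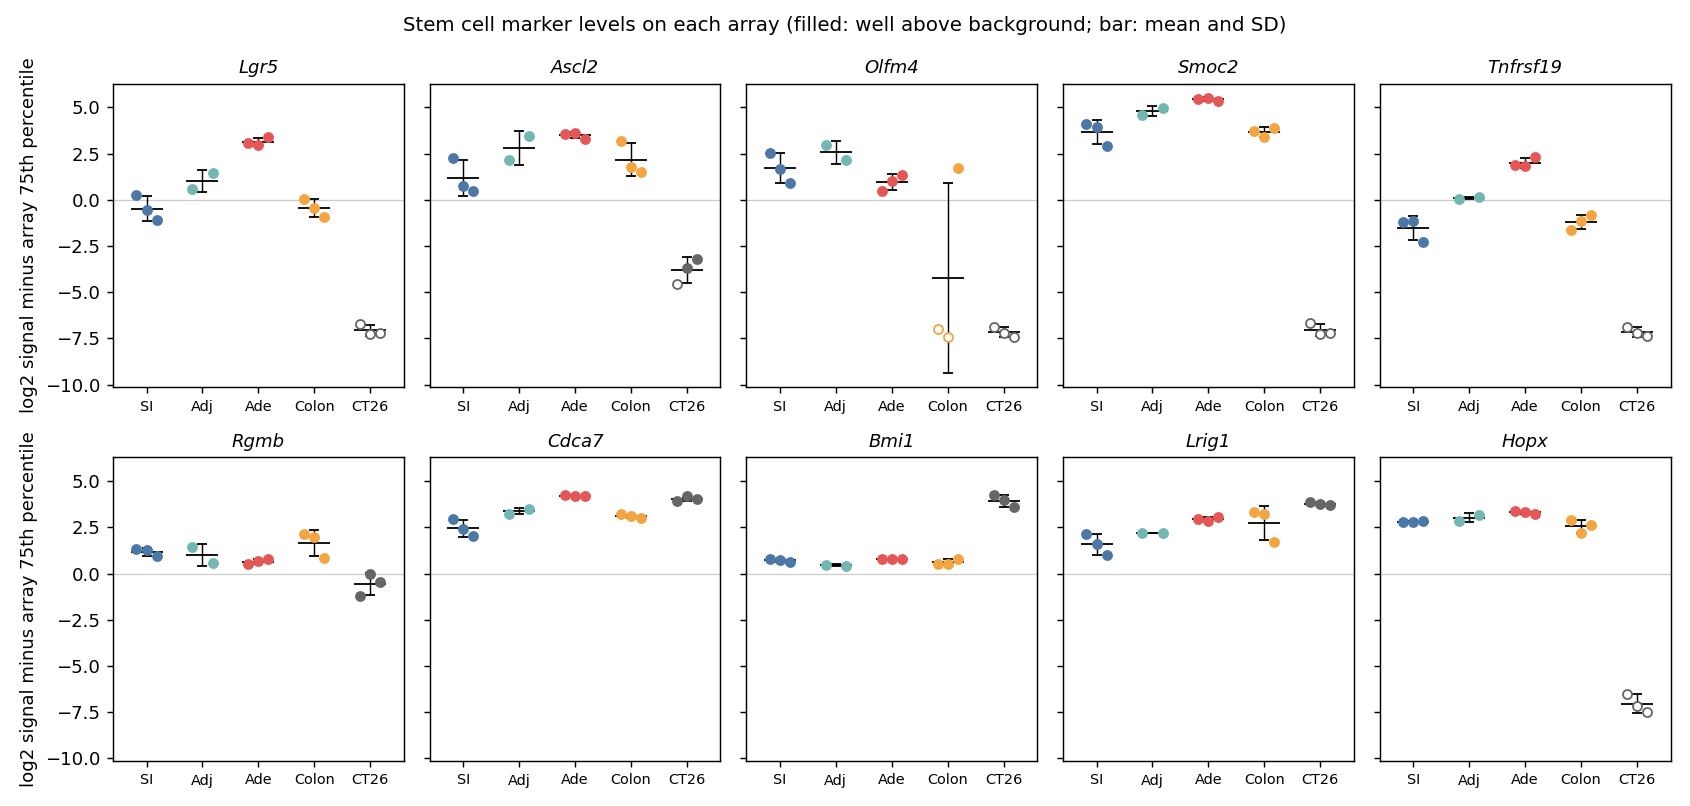
Scaled log2 signal (vertical axis, log2 intensity minus the 75th percentile of the array) of the 10 markers in small intestine (SI), adjacent tissue (Adj), adenoma (Ade), colon and CT26. Each point is 1 array, open where it was not well above background, and the bars give mean and SD. The adenoma arrays of Lgr5 (2.96 to 3.38) and Tnfrsf19 (1.82 to 2.32) lie above all other arrays, Olfm4 is high on 1 of 3 colon arrays, and 5 markers have no filled point in CT26.

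Among the markers of the reserve pool, Lrig1, a transmembrane inhibitor of ErbB receptors, was called and Bmi1 and Hopx were not. Its brighter probe (chromosome 6, 94554811 to 94554870) gave 2.95, 2.84 and 3.04 in adenomas, 2.21 and 2.18 in adjacent tissue and 2.14, 1.61 and 0.99 in small intestine, without overlap. The difference between adenomas and small intestine was 1.36 ± 0.291 (2.57-fold, adjusted p = 0.00796). The call lay near the threshold, since its second probe gave 1.36 ± 0.309 with an adjusted p of 0.0102, and it was lost in 9 of 15 alternatives. These include leaving out small intestine replicate 2 (adjusted p = 0.0249), small intestine replicate 3, where the log2 fold change was 1.07, or any adenoma array (adjusted p = 0.0271 to 0.0318).

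Bmi1, a subunit of a Polycomb repressive complex (chromosome 2, 18607531 to 18607590), gave 0.81, 0.78 and 0.80 in adenomas and 0.80, 0.71 and 0.63 in small intestine. These values overlapped, and the difference was 0.08 ± 0.146 (adjusted p = 0.664), with -0.04 ± 0.152 on the second probe. Hopx, an atypical homeodomain protein without DNA binding of its own (chromosome 5, 77516624 to 77516683), gave 3.39, 3.31 and 3.24 in adenomas and 2.77, 2.79 and 2.87 in small intestine. Its arrays did not overlap, but the difference of 0.50 ± 0.147 (adjusted p = 0.0257) missed both the fold threshold and that on adjusted p. On the second Hopx probe the arrays overlapped, with a difference of 0.29 ± 0.177 (adjusted p = 0.206).

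Olfm4 and Rgmb were the only markers with a lower mean in adenomas than in small intestine. Olfm4, a secreted glycoprotein that marks crypt base cells and depends on Notch signalling (chromosome 14, 80421398 to 80421457), gave 0.50, 1.04 and 1.34 in adenomas, 2.99 and 2.14 in adjacent tissue and 2.56, 1.65 and 0.93 in small intestine. The adenoma values overlapped those of small intestine, with a difference of -0.76 ± 0.425 (adjusted p = 0.171), and lay below both adjacent arrays. Rgmb, a co-receptor for BMP ligands (chromosome 17, 15941859 to 15941918), gave 0.50, 0.66 and 0.77 in adenomas and 1.32, 1.26 and 0.93 in small intestine. Its difference was -0.53 ± 0.179 (adjusted p = 0.0426) and it was not called. A second Rgmb probe was not well above background on 5 of the 8 arrays of these groups and the adjacent tissue and was not tested here.

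Adenomas were next set against the tissue beside them, which by the sample list is a comparison within 1 mouse. Lgr5 and Tnfrsf19 were the 2 of 10 markers called, both higher in adenomas, against 2.40% of all 22199 genes called higher. Arrays did not overlap, in either direction, for 8 of 10 markers (Olfm4 with the lower values in adenomas) and for 57.0% of all genes. Lgr5 was higher by 2.13 ± 0.282 (4.36-fold, adjusted p = 0.0092). Tnfrsf19 was higher by 1.89 ± 0.205 (3.72-fold, adjusted p = 0.00607), and its second probe by 1.56 ± 0.221 (adjusted p = 0.0106).

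Both calls lie near the threshold. They were lost with the slide as a block (adjusted p = 0.019 for Lgr5 and 0.0155 for Tnfrsf19) and without adenoma replicate 1 (adjusted p = 0.0362 and 0.0242), replicate 2 (adjusted p = 0.049 and 0.0386) or replicate 3 (adjusted p = 0.0375 and 0.0197). Without adjacent replicate 1 both were lost (adjusted p = 0.0174 and 0.0197), and without adjacent replicate 2 Tnfrsf19 alone was lost (adjusted p = 0.0114). With quantile normalization Lgr5 was lost (adjusted p = 0.0119), and both were lost with no filter on dim probes (adjusted p = 0.0301 and 0.0237) or with all 5 groups in the fit (adjusted p = 0.0176 and 0.0157). The size of the differences moved less, from 1.72 to 2.53 for Lgr5 and from 1.73 to 2.01 for Tnfrsf19 over 14 alternatives, and within each slide they were 2.62 and 1.53 for Lgr5 and 2.03 and 1.67 for Tnfrsf19.

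The remaining markers did not pass. Cdca7 differed by 0.83 ± 0.156 (adjusted p = 0.0216), Lrig1 by 0.75 ± 0.15 (adjusted p = 0.0251) and Smoc2 by 0.65 ± 0.18 (adjusted p = 0.0548). Olfm4 differed by -1.61 ± 0.35, the lower level being in adenomas, with an adjusted p of 0.0309. Ascl2 differed by 0.68 ± 0.393 (adjusted p = 0.256), and adjacent replicate 2 (3.47) lay within the adenoma range. Paneth cell genes were uneven between the adjacent arrays, with medians of 9.0 and 5.69, which was not tested against the marker levels.

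Tissue adjacent to adenomas was compared with healthy small intestine to see whether the markers differed outside the lesion. None of the 10 markers was called, where 0.00924% of 21641 genes were called in either direction (2 genes). Unadjusted, 6629 genes had p under 0.05 in limma. Of the markers, 8 had a higher mean in adjacent tissue, and the median log2 difference was 0.89 over the markers and -0.10 over all genes tested. In either direction 6 markers did not overlap (Bmi1 with the lower values in adjacent tissue), against 52.9% of all genes. The differences were 1.64 ± 0.39 for Tnfrsf19 (adjusted p = 0.072), 1.49 ± 0.464 for Lgr5 (adjusted p = 0.105), 1.64 ± 0.656 for Ascl2 (adjusted p = 0.159) and 1.14 ± 0.403 for Smoc2 (adjusted p = 0.129). Those of Bmi1, Rgmb and Hopx were -0.27 ± 0.198, -0.16 ± 0.318 and 0.20 ± 0.214.

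**Figure D2:**
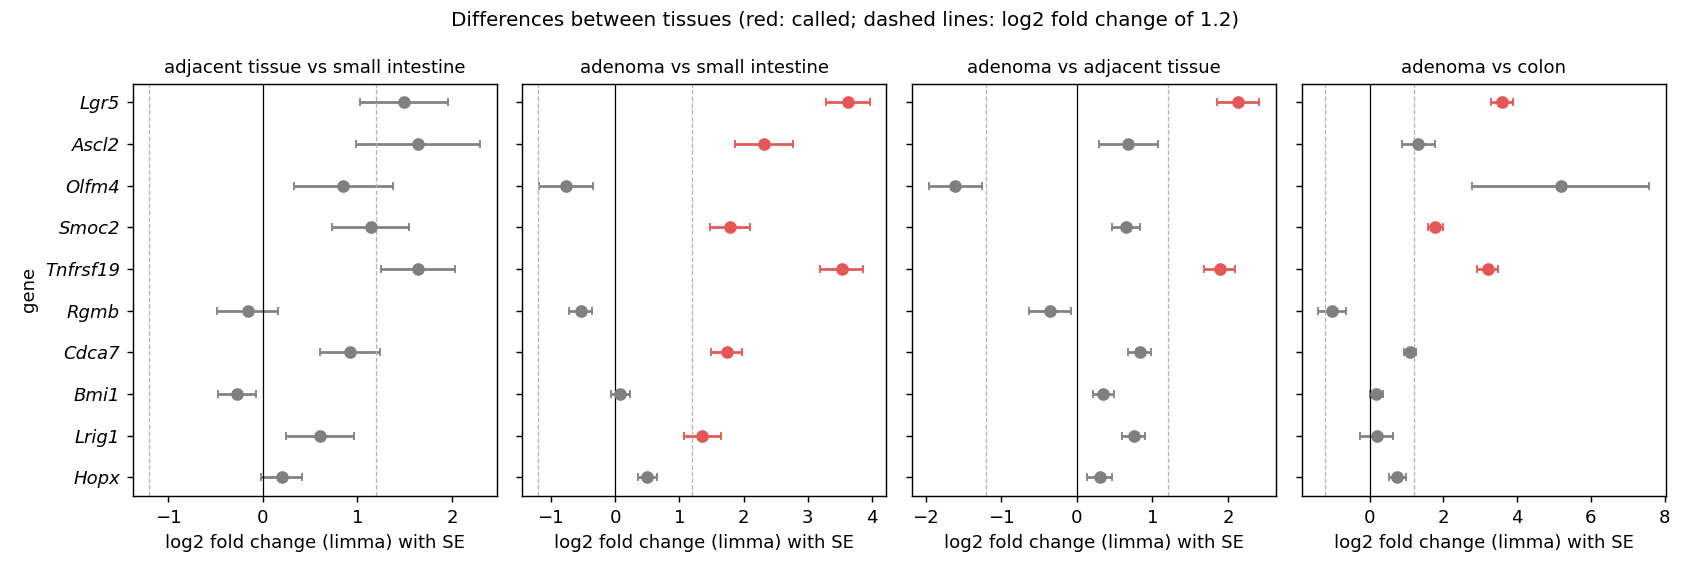
Log2 fold change (horizontal axis) with its standard error for the 10 markers in 4 comparisons, as fitted with limma. Red points were called and dashed lines mark a log2 fold change of 1.2. Lgr5 and Tnfrsf19 are red in each comparison that has adenomas in it (1.89 to 3.62), and no marker is red between adjacent tissue and small intestine.

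Colon was compared with small intestine for regional differences. No marker was called (0.00969% of 20644 genes in either direction), and 4924 genes had an unadjusted p under 0.05 in limma. Olfm4 was not well above background on colon replicates 1 and 2 (-6.97 and -7.44), and colon replicate 3 gave 1.72, within the small intestine range of 0.93 to 2.56. The Olfm4 difference over all arrays was -5.94 ± 2.34 (adjusted p = 0.195). Without colon replicate 3, Olfm4 was at least 100-fold lower in colon. It then passed the filter on dim probes through small intestine alone, which selects for a difference. Its call, where 3.90% of genes were called lower, is given as a description. The enterocyte and Paneth genes of colon replicate 3 given above moved with its Olfm4 level.

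Colon replicate 3 also differed from the other colon arrays in Lrig1 (1.70 against 3.32 and 3.22) and Rgmb (0.85 against 2.16 and 1.99). For both genes it lay in or next to the small intestine range. Without it, colon exceeded small intestine by 1.69 ± 0.365 for Lrig1 (adjusted p = 0.0238) and 0.91 ± 0.24 for Rgmb (adjusted p = 0.0423), and neither was called. Lgr5 gave 0.04, -0.46 and -0.94 in colon, overlapping the small intestine, with a difference of 0.02 ± 0.428 (adjusted p = 0.981). Smoc2 differed by 0.01 ± 0.369 and Tnfrsf19 by 0.33 ± 0.394 (adjusted p = 0.635).

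Set against colon, adenomas were higher in Lgr5 (3.60 ± 0.295, 12.1-fold, adjusted p = 0.00249), Tnfrsf19 (3.20 ± 0.278, 9.17-fold, adjusted p = 0.00287) and Smoc2 (1.78 ± 0.203, 3.44-fold, adjusted p = 0.00572). These 3 of 10 markers compare with 2.07% of 21861 genes called higher. The colon arrays gave -1.62, -1.15 and -0.82 for Tnfrsf19 and 3.72, 3.39 and 3.89 for Smoc2, all below the adenomas. The second Tnfrsf19 probe gave a smaller difference, 1.64 ± 0.318 (adjusted p = 0.026), and was not called. The small intestine and colon comparisons share the adenoma arrays. With the slide as a block no marker was called (adjusted p = 0.0139 for Lgr5, 0.0143 for Tnfrsf19 and 0.0156 for Smoc2), nor without adenoma replicate 1 (adjusted p = 0.0213 for Lgr5), replicate 2 (adjusted p = 0.026) or replicate 3 (adjusted p = 0.0182). Lgr5 alone was called without colon replicate 1 (adjusted p = 0.0107 for Tnfrsf19 and 0.0222 for Smoc2) or replicate 2 (adjusted p just over 0.01 for Tnfrsf19 and 0.0131 for Smoc2), and Smoc2 was lost with no filter on dim probes (adjusted p = 0.0219). Within each slide Lgr5 differed by 3.70 and 3.41, and Tnfrsf19 by 3.24 and 3.04.

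Without colon replicate 3, Rgmb was called lower in adenomas (6.69% of genes), and the 3 markers above were still called higher (5.03% of genes). Olfm4 was then at least 59.4-fold higher. It passed the filter through adenomas alone, which selects for a difference, so this is a description. Rgmb differed by -1.43 ± 0.165 (adjusted p = 0.003).

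Between CT26 and colon, Bmi1 was higher in CT26, where 21.0% of 21696 genes were called higher, and Rgmb was lower, where 16.2% were. Lgr5, Ascl2, Smoc2, Tnfrsf19 and Hopx were called lower too. They passed the filter on dim probes through colon alone, which selects for a difference, and their values are given as a description. Bmi1 gave 4.23, 3.96 and 3.60 in CT26 and 0.50, 0.54 and 0.80 in colon. All CT26 arrays lay above every tissue array, with a difference from colon of 3.31 ± 0.295 (9.95-fold, adjusted p = 8.31e-05) and 2.69 ± 0.298 on the second probe (adjusted p = 0.000247). The call held under all 15 alternatives. With colon replicate 3 left out, the difference was 3.41 ± 0.306.

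Lgr5, Smoc2, Tnfrsf19, Hopx and Olfm4 were not well above background on any CT26 array. Relative to colon, Lgr5 was at least 23.1-fold lower, Smoc2 at least 401-fold, Tnfrsf19 at least 13.8-fold and Hopx at least 186-fold. Without colon replicate 3 the bounds were 27.3-fold for Lgr5, 371-fold for Smoc2, 12.1-fold for Tnfrsf19 and 183-fold for Hopx. These bounds set the mean of colon against the lowest signal well above background in CT26, since the dim probes have no measured level there. Olfm4 was not tested, as only 1 colon array measured it. Ascl2 was just measurable in CT26 (-3.68 and -3.19, with replicate 1 not well above background at -4.54). It differed from colon by -5.97 ± 0.538 (log2, SE), and by -6.30 ± 0.542 without colon replicate 3.

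Rgmb gave -1.22, -0.03 and -0.43 in CT26 and was measured on every array there. It was lower than in colon by -2.23 ± 0.468 (adjusted p = 0.0054), a call lost without CT26 replicate 1 (adjusted p = 0.0213) or 3 (adjusted p = 0.0194), without colon replicate 1 (adjusted p = 0.0209) or 2 (adjusted p = 0.0199), with the slide as a block (adjusted p = 0.0162) and with no filter on dim probes (adjusted p = 0.0111). Without colon replicate 3 the Rgmb difference was -2.64 ± 0.397 (adjusted p = 0.00127 in limma), and it was still called. The dimmer Rgmb probe differed by 0.02 ± 0.418 over all arrays, near background in both groups. Cdca7 gave 3.93, 4.18 and 4.02 in CT26, beside 3.20, 3.1 and 3.02 in colon (0.94 ± 0.262, adjusted p = 0.0186). Lrig1 gave 3.87, 3.76 and 3.73, above every tissue array, with a difference from colon of 1.03 ± 0.46 (adjusted p = 0.0952). Without colon replicate 3, Lrig1 differed by 0.51 ± 0.268 (adjusted p = 0.145 in limma) and Cdca7 by 0.89 ± 0.272 (adjusted p = 0.027 in limma). The proliferation list had medians of 4.95 to 5.22 in CT26 and 2.20 to 2.48 in colon. Strain, culture and tumour origin cannot be told apart in this comparison.

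The genes linked to Lgr5+ cells outside the 10 markers, a list of 22 Wnt targets and crypt base genes, were mostly called in adenomas. Like the markers, this list was chosen with earlier results of these data known, so its counts are a description. Relative to small intestine, 1 of 22 was called lower, as were 2457 of all 22095 genes. Another 14 were called higher (11.3% of all genes) and 7 neither. The list had a median log2 fold change of 2.06 against -0.15 over all genes. The largest was that of Gkn3, a gastrokine of the gastric mucosa also listed among genes of Lgr5+ cells, at 8.13 ± 0.949 (adjusted p = 0.000733). The Wnt feedback inhibitor Nkd1 followed at 4.72 ± 0.271 (adjusted p = 9.06e-05), the RNA-binding protein Mex3a at 4.14 ± 0.337 (adjusted p = 0.000203) and the hyaluronan receptor Cd44 at 3.28 ± 0.239 (adjusted p = 0.000145).

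Among the other genes called higher were the crypt transcription factor Sox9 (3.15 ± 0.286), the membrane protein Prom1 (3.06 ± 0.177) and Igfbp4 (2.76 ± 0.258), which binds insulin-like growth factors. The cholesterol-esterifying enzyme Soat1 (2.36 ± 0.2), the ephrin receptor Ephb3 (2.18 ± 0.303), Myc (2.05 ± 0.299) and the ion transporter Slc12a2 (1.65 ± 0.351) were called higher as well. So were Rnf43 (2.06 ± 0.146) and Znrf3 (2.06 ± 0.338), ubiquitin ligases that remove Wnt receptors, and Notum (1.54 ± 0.245), which inactivates Wnt ligands. All of these had adjusted p of at most 0.00784. The RNA-binding protein Msi1 was the gene called lower (-1.80 ± 0.369, adjusted p = 0.00676). Axin2, a Wnt target in wide use, differed by 1.37 ± 0.461 (adjusted p = 0.0421) and was not called.

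In adenomas against adjacent tissue, 5 of the 22 were called higher (2.40% of all genes) and 1 lower (395 of all 22199 genes). The list had a median of 1.28 against -0.04 over all genes. Gkn3 (5.24 ± 0.523), Nkd1 (2.69 ± 0.296), Mex3a (2.46 ± 0.286) and Cd44 (2.24 ± 0.157) had the largest differences. The gene called lower was Aqp4 (-1.65 ± 0.211, adjusted p = 0.00843 in limma). Between adjacent tissue and small intestine 0 of 21 tested were called, with a median of 0.98 against -0.10.

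**Figure D3:**
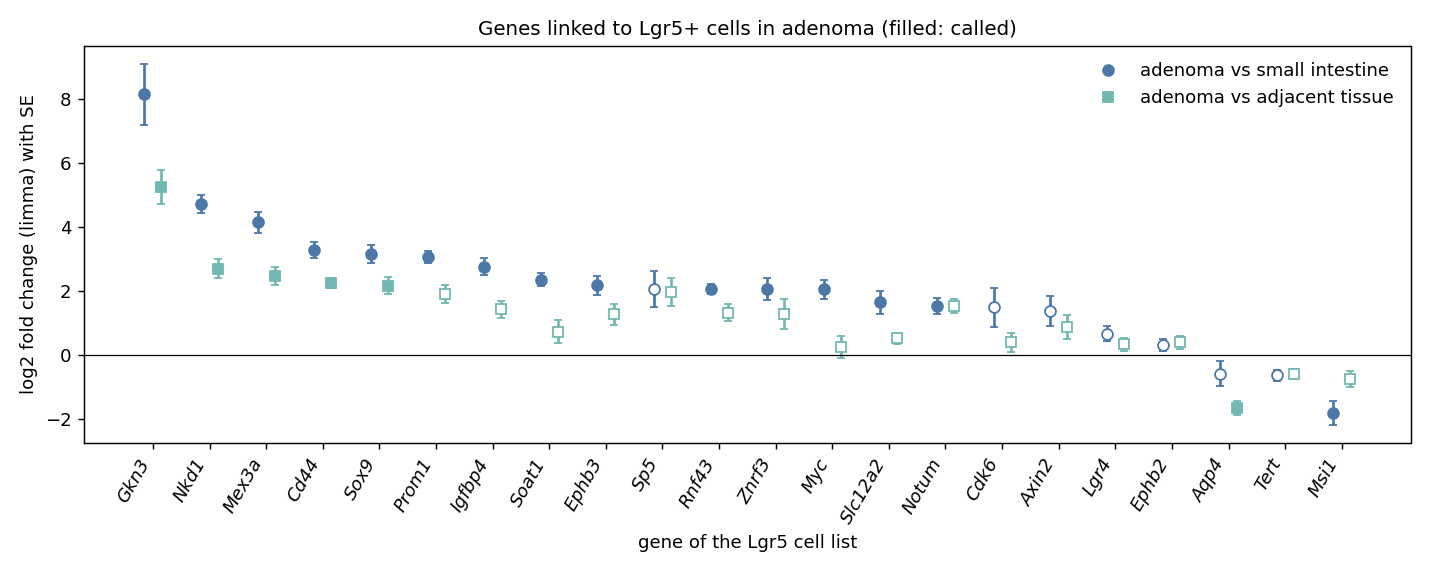
Log2 fold change with its standard error (vertical axis) of the 22 genes linked to Lgr5+ cells, in adenomas against small intestine (circles) and against adjacent tissue (squares), as fitted with limma. Filled symbols were called. The genes run from Gkn3 (8.13) to Msi1 (-1.80) by the first comparison, with 15 filled circles and 6 filled squares.

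Niche signals, a list of 18 ligands, inhibitors and marks of the stroma that feeds crypt stem cells, mostly did not pass the test. Relative to small intestine 3 of the 15 tested were called higher in adenomas (11.3% of all genes), Pdgfra (2.62 ± 0.381, adjusted p = 0.00176), Wnt5a (1.58 ± 0.353, adjusted p = 0.00955) and Bmp4 (1.51 ± 0.281, adjusted p = 0.00469). The R-spondin gene Rspo1, whose product is a ligand of Lgr5, was called lower (-2.54 ± 0.552, adjusted p = 0.00849). Of all 22095 genes, 2457 were called lower. Pdgfra also stands in the fibroblast list given beside Smoc2. In adenomas against adjacent tissue 0 of 15 were called in limma, where 4.18% of all genes were called in either direction.

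**Figure D4:**
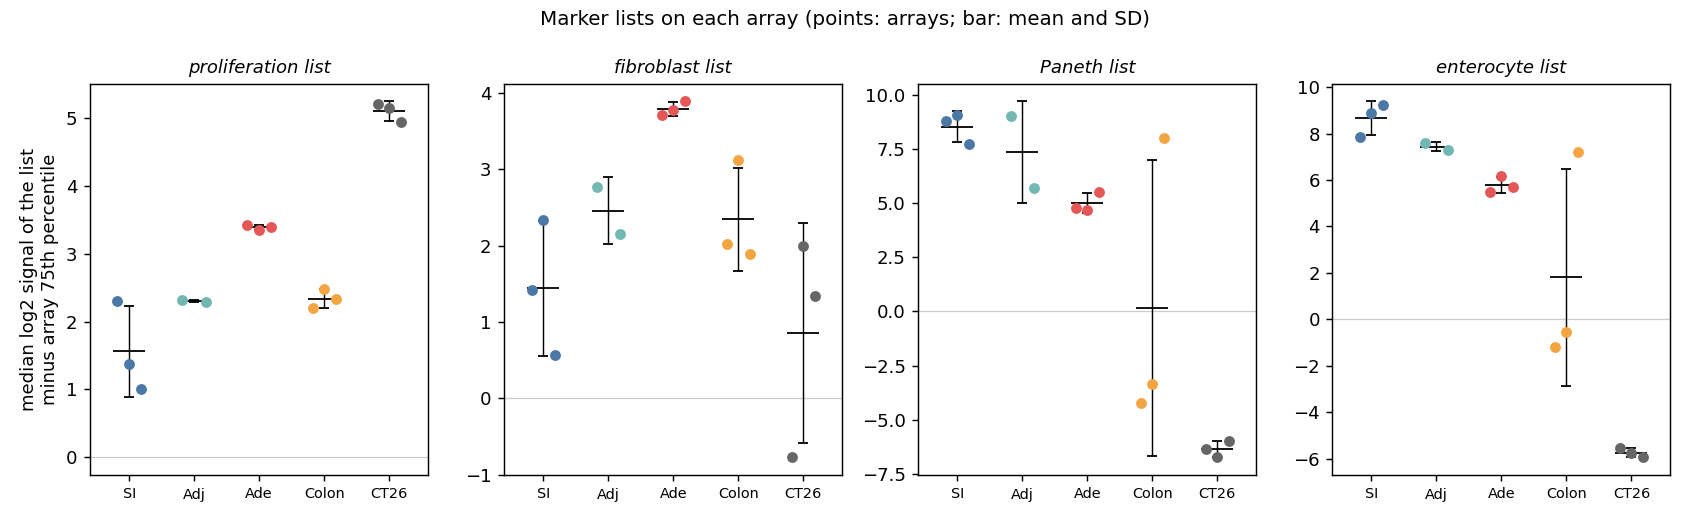
Median scaled log2 signal (vertical axis) of 4 marker lists on each array, with the mean and SD of each group. The proliferation medians are 3.35 to 3.43 in adenomas and 4.95 to 5.22 in CT26, the enterocyte medians are 7.83 to 9.24 in small intestine and 5.48 to 6.16 in adenomas, and colon replicate 3 lies apart from the other colon arrays in the Paneth (8.02) and enterocyte (7.19) lists.

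The genes whose scaled signal followed each marker most closely over the 11 tissue arrays were read off by Pearson correlation among 25097 other gene names, as a description with no test, since arrays of a group share their tissue. Those nearest to Lgr5 were Map3k15 (r = 0.985), Gls2 (r = 0.983) and Morc2a (r = 0.982). Tnfrsf19 was followed by Aif1l (r = 0.978), Ecscr (r = 0.976) and the Wnt pathway transcription factor Tcf7 (r = 0.974), and Ascl2 by Morn4 (r = 0.975), Rpp38 (r = 0.972) and Pkp1 (r = 0.964). Cdca7 had the closest partners, the centromere gene Cenph (r = 0.995), Noc2l (r = 0.994) and Fam72a (r = 0.994). For Olfm4 they were LOC100047671 (r = 0.987), the urea cycle enzyme Cps1 (r = 0.986) and Lgals2 (r = 0.985). Its correlations include colon replicates 1 and 2, where Olfm4 was not well above background (-6.97 and -7.44) and far below every other tissue array. Smoc2 was followed by 2410016O06Rik (r = 0.964), Gm3289 (r = 0.962) and Ddx56 (r = 0.958), Lrig1 by Ift80 (r = 0.983), Tmem109 (r = 0.982) and Tasp1 (r = 0.979), and Rgmb by Stxbp6 (r = 0.957), Sytl1 (r = 0.957) and an unnamed transcript (r = 0.956). The closest gene to Bmi1 reached r = 0.948 (LOC100045796), ahead of Tada1 (r = 0.923) and Psma3 (r = 0.913). Hopx was nearest to 2 unnamed transcripts (r = 0.937 and 0.931) and Elp2 (r = 0.929).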

How the data were processed

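RNA was measured on single-colour Agilent SurePrint G3 Mouse 8x60K arrays. The authors deposited each array's scanner output (Feature Extraction 10.7.3.1, probe positions on mm9), whose processed signal is a background-subtracted intensity without normalization between arrays. A second deposited table, of normalized log2 values, served as an alternative, with columns of fold changes and p-values that were not used. Control and outlier spots were left out, the log2 intensity was taken, the array's 75th percentile was subtracted and spots of a probe were averaged. Groups were taken from the labels, and 6 pairs were fitted with limma 3.58.1 (R 4.3.3; lmFit, eBayes) over probes that all arrays of 1 or both groups showed well above background, with Benjamini-Hochberg adjustment over them. Thresholds followed the study's methods. A gene was read from its brightest probe. The fit was tested on simulated data. Replicate numbers come from the labels, which do not say whether arrays of the same number share an animal, batch or day. The number of arrays limits the precision. The p-values set a difference between groups against the spread between these samples, which need not be that between animals.

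Genes named were the 10 markers and the list genes called in adenomas against small intestine. Named too were at most 4 further list genes in a comparison and the 3 closest by correlation. Axin2, Aqp4 and genes of the marker lists were named after their values were seen. Markers and lists were chosen with earlier results of these data known. Alternatives were the values of the authors' table, quantile normalization, normexp (offset 50), no filter or a stricter filter on dim probes, all 5 groups in the fit, a block for the slide or for the replicate number, an adjusted p of 0.05 alone, any probe of a gene, and the omission of each array.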

Additional observations from a re-analysis of the deposited data

How the results depend on the processing

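The labels number the replicates alike in all groups and do not say what arrays of the same number share. Between such arrays, the correlations of deviations from the group means ran from -0.223 to 0.302. The adjacent samples titled Adj2 and Adj3 have the replicate numbers 1 and 2, which limits what a block of the number means there. A pairing by the numbers in the titles was not examined. With the replicate block, 0 markers were called in adenomas against adjacent tissue and against colon, and 5 of 6, 6 of 7, 0 and 0 in the other comparisons, in which Lrig1 and Rgmb were lost. In adenomas against small intestine, 3 markers were called with no filter on dim probes, and 3 to 6 with an array left out. In adenomas against adjacent tissue, 0 were called with no filter, with all 5 groups in the fit and with the slide as a block, 1 with quantile normalization, 5 at an adjusted p of 0.05 with no fold threshold, and 0 to 1 with an array left out. In adenomas against colon, 0 were called with the slide as a block and 0 to 5 with an array left out. Colon against small intestine gave 0 to 1 and CT26 against colon 6 to 7 with an array left out, and CT26 against colon 2 (Rgmb and Bmi1) where probes had to be well above background in both groups, which leaves out markers too dim in CT26. Of single markers' values, 771 kept their direction and side of the threshold, 65 fell short of it and 10 passed it. The other 12 changed sign and were called in neither setting. With an array left out, Rgmb ranged from -0.79 to 0.06 in adenomas against adjacent tissue (-0.36 with all arrays) and from -0.59 to 0.27 in adjacent tissue against small intestine (-0.16), and Lrig1 from -0.33 to 0.48 in adenomas against colon (0.19). In colon against small intestine, Lgr5 (0.02) ranged from -0.29 to 0.39, Smoc2 (0.01) from -0.36 to 0.24 and Tnfrsf19 (0.33) from -0.04 to 0.55, and Lgr5 was -0.02 with the authors' table and Smoc2 -0.13 with the slide as a block. The authors' table and normexp changed no count. A normexp background moved the median of all genes in CT26 against colon from 0.32 to 0.11, and the markers called were the same 7. Arrays have no read depth, and probes near background limit what can be said of CT26.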
